A study of Mus musculus with 8 samples.

Results

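The 10 chemokine genes Cxcl1, Cxcl2, Cxcl5, Cxcl16, Ccl20, Ccl28, Cxcl12, Cxcl13, Ccl19 and Cx3cl1 were followed through cells of the mouse extrahepatic bile duct and pancreatic duct. They were chosen by gene name among the 31228 entries of the expression table, and all 10 were found, Ccl19 with 2 entries. RNA was sequenced from 8 samples of C57BL/6 mice, namely 1 of freshly isolated epithelium from the extrahepatic bile duct, 1 of such epithelium from the pancreatic duct, 3 organoid cultures from bile duct and 3 from pancreatic duct. The organoids are called biliary cultures 1 to 3 and pancreatic cultures 1 to 3, and the freshly isolated samples biliary epithelium and pancreatic epithelium. The labels name no genetic change and no drug treatment for any sample, and give neither age nor sex. Per the labels' protocols, ducts were dissected, minced and digested with collagenase IV, and the epithelia went straight into Trizol. Organoids, hollow 3-dimensional epithelial cultures, were grown in Matrigel in a medium with EGF, R-Spondin-1, Noggin, FGF10, B27, N-acetylcysteine and nicotinamide. Wnt3A and the kinase inhibitor Y27632 were withdrawn once luminal organoids had formed. The labels do not say whether the 3 cultures of an organ came from separate animals, so p-values measure the spread between these cultures only. Levels below are FPKM (reads per kilobase of exon, relative to the size of the library) scaled between the 8 libraries, differences are on the log2(scaled FPKM + 1) scale, and a read number is the deposited FPKM divided by the value of 1 read.

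Chemokines are small secreted or membrane-held proteins that bind G protein-coupled receptors on leukocytes and direct where these cells move. Cxcl1, Cxcl2 and Cxcl5 bind Cxcr2 and draw neutrophils, and epithelia make them in response to injury, IL-17 or microbial products through NF-kappa B. Cxcl12, Cxcl13 and Ccl19 are best known from stromal, endothelial and lymphoid-tissue cells, where they place progenitors, B cells and T cells.

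The promoters of Cxcl1, Cxcl2 and Ccl20 are printed because they held a kappa B match, and those of Cx3cl1 and Cxcl12 as examples without one, the former from a gene present in every organoid and the latter from a gene lost from them. The sequences are those of RefSeq on GRCm38.p6, from 250 bases before to 50 bases after the RefSeq gene start, 5′ to 3′. Of the 10 chemokine genes 8 had an entry, all but Cxcl5 and Cxcl16. The RefSeq start can differ from the start in the expression table, which is the one printed with gene coordinates below. In that table Cx3cl1 starts at 94772009, so most of its window lies inside the gene. Capitals mark every match on either strand to the kappa B consensus, the usual binding sequence of NF-kappa B. All 5 genes lie on the plus strand.
Cxcl1, chr5:90890995-90891294: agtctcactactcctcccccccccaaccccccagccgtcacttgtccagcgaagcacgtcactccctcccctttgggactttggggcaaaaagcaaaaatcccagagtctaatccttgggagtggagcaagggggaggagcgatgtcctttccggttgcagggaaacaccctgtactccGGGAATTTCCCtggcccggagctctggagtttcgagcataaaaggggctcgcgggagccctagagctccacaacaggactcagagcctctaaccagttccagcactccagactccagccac
Cxcl2, chr5:90903649-90903948: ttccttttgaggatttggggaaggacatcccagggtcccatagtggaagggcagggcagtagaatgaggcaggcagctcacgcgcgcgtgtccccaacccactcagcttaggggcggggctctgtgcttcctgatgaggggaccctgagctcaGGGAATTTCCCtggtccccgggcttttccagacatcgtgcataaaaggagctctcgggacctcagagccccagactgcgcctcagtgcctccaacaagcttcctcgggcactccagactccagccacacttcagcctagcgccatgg
Ccl20, chr1:83116516-83116815: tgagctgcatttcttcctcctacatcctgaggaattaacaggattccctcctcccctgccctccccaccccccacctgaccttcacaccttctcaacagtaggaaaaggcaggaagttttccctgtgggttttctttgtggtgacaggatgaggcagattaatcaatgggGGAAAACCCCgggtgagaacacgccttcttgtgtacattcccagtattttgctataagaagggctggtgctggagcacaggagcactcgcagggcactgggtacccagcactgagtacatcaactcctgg
Cx3cl1, chr8:94771930-94772229: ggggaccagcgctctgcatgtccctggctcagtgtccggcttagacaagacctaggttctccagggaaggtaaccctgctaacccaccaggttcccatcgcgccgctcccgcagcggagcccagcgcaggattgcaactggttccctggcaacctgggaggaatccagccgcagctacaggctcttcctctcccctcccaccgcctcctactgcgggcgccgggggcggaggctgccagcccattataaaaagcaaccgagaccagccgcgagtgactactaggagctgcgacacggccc
Cxcl12, chr6:117168285-117168584: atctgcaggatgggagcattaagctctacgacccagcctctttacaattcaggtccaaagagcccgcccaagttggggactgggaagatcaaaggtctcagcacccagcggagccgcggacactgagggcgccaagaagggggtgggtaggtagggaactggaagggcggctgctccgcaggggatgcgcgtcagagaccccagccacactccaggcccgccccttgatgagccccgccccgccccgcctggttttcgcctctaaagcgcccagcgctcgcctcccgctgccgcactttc

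The consensus match in the Cxcl1 window, GGGAATTTCC, began 71 bases before the start of the gene, and the same 10 bases began 97 bases before the start of Cxcl2. In both promoters a second match to the consensus, GGGAAATTCC on the minus strand, overlapped the first. Cxcl3, a neighbour of Cxcl1 and Cxcl2 and a ligand of the same receptor, had GGGAATTTCC 73 bases before its start. Among all 32851 promoter windows of this length in the table, 29 (0.09%), those of Cxcl1, Cxcl2 and Cxcl3 among them, held these 10 bases on either strand, which were taken for this count from the Cxcl1 window. Ccl20 had 1 match to the looser consensus, GGGGTTTTCC on the minus strand, 80 bases before its start. The looser consensus was found in 2779 windows (8.46%). The windows of Cxcl12, Cxcl13, Ccl19, Ccl28 and Cx3cl1 held no match. Distances count from the RefSeq start, which for Cxcl1, Cxcl2 and Cxcl3 is not the start in the expression table. The gap between 71 and 97 bases thus depends on the annotation used. A match describes the letters of the window and is not a measured binding site.

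The libraries labelled epithelium held RNA of other cells, which were low in organoids or nearly absent from them. Summed levels in biliary and pancreatic epithelium were 1990 and 2040 scaled FPKM for 10 fibroblast genes, 2220 and 3980 for 6 smooth muscle genes, 696 and 1160 for 8 endothelial genes and 106 and 138 for 10 leukocyte genes. The organoid sums ran from 0.723 to 3.61, 0.315 to 0.631, 0.216 to 0.384 and 2.61 to 11.9. Lum, Cldn5 and Itgax had 0 reads in all 6 organoids. The sum of 7 acinar genes was 19100 and 41600 in the epithelia and at most 0.26 in an organoid. Of the mesothelial genes, Wt1, Upk3b and Lrrn4 had 1.19 to 9.06 scaled FPKM in the epithelia and at most 0.388 in an organoid. Krt19 and Msln of the same list were high in organoids, and Krt19 is also among the duct epithelium genes. Of the duct epithelium genes, 8 of 10 rose by limma, against 27.6% of all genes tested, and 2 did not pass, with sums of 5080 to 11000 in organoids. All 10 fibroblast, 6 smooth muscle and 8 endothelial genes were below 1 scaled FPKM in every organoid. They could be tested only through the epithelia, so their lower level in organoids is given as a description. Their part in the levels of the chemokine genes was not tested. In bulk RNA fewer cells of a type and less RNA per cell cannot be told apart.

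**Figure D1:**
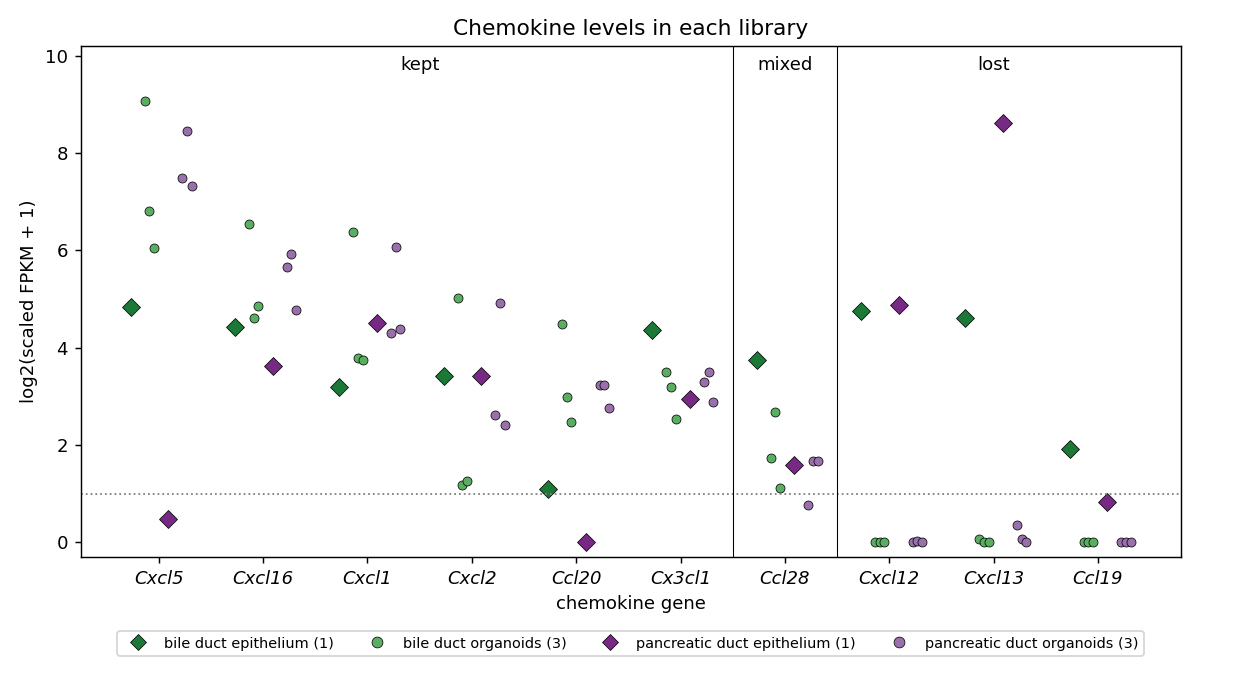
Level of each of the 10 chemokine genes in each library, as log2(scaled FPKM + 1), with diamonds for the single epithelial libraries and circles for the 3 organoid cultures of each organ; the dotted line marks 1 scaled FPKM. Cxcl12, Cxcl13 and Ccl19 sit at or near 0 in all 6 organoids, while Cxcl5 reaches 538 scaled FPKM in biliary culture 1.

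In organoids, 6 chemokine genes were kept, that is, had at least 1 scaled FPKM in all 6 cultures. These were Cxcl1, Cxcl2, Cxcl5, Cxcl16, Ccl20 and Cx3cl1. Cxcl12, Cxcl13 and Ccl19 were lost, with less than 1 scaled FPKM in all 6 cultures and more in an epithelium. Ccl28 was mixed, because 5 cultures had at least 1 scaled FPKM and pancreatic culture 1 had 0.693. Of all 15524 genes with at least 1 scaled FPKM in an epithelium, 67.1% were kept, 21.7% were lost and 11.3% were mixed, so the counts among the chemokine genes lie near those of genes in general. Cxcl2 lay just inside the limit, with 1.27 in biliary culture 2 and 1.39 in biliary culture 3. With a limit of 0.5 FPKM 7 genes were kept, and with a limit of 2 FPKM 5 were.

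The change from epithelium to organoid was tested over both organs with an organ term in limma, which left 5 residual degrees of freedom. The single epithelial libraries are thereby assumed to vary as organoids do. Of 15033 genes tested, 27.6% were higher and 30.7% lower in organoids at a Benjamini-Hochberg adjusted p under 0.05. These shares depend on the scaling: 4144 genes were higher and 4610 lower, but 5497 higher and 3659 lower with FPKM as deposited. Among the 9 chemokine genes tested, Cxcl5 and Ccl20 rose, Cxcl12 and Cxcl13 fell, and 5 did not pass the test. Cxcl12 and Cxcl13 passed the filter on low values only through the epithelia, so a difference was built into their being tested and their calls support nothing further, and Ccl19 was too low in pancreatic epithelium to be tested. Cxcl5 and Ccl20 had at least 1 scaled FPKM in biliary epithelium but not in pancreatic epithelium, so they reached 2 libraries only with the organoids. Neither rise passed the threshold when pancreatic epithelium was left out, which left 1 epithelial library. The differences were then 2.46 for Cxcl5 and 2.22 for Ccl20.

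**Figure D2:**
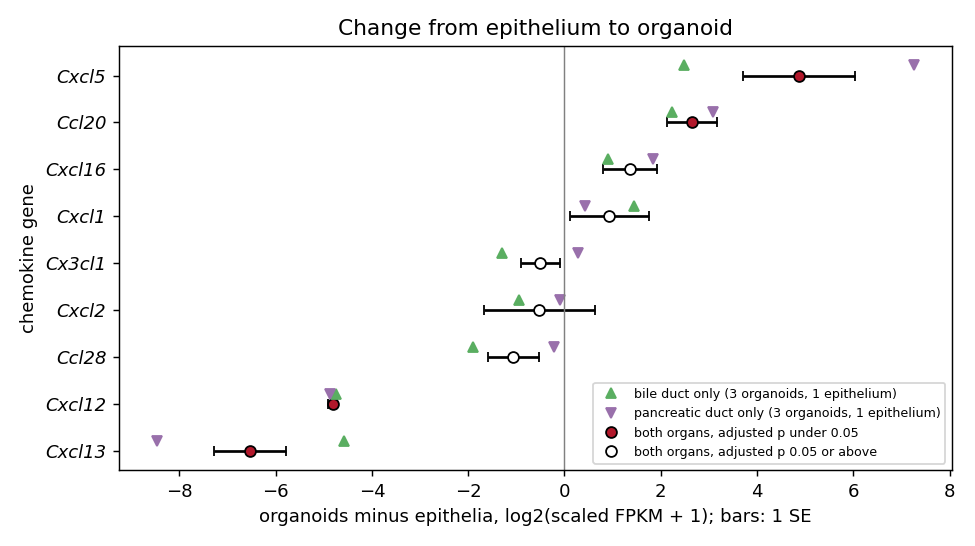
Difference between organoids and epithelia for the 9 chemokine genes tested, in log2(scaled FPKM + 1); circles with bars give the estimate over both organs and 1 standard error from limma, and triangles give the mean of 3 organoids minus the 1 epithelium of each organ. Cxcl5 spans from 2.48 in bile duct to 7.26 in pancreatic duct, and Cxcl12 has nearly the same fall in both.

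The 3 ligands of Cxcr2 lie close together on the plus strand of chromosome 5 in GRCm38. Cxcl5 (ENSMUSG00000029371) runs from 90759360 to 90761624, Cxcl1 (ENSMUSG00000029380) from 90891241 to 90893115 and Cxcl2 (ENSMUSG00000058427) from 90903871 to 90905938. The window of 146.6 kb from the start of Cxcl5 to the end of Cxcl2 held 9 entries of the table, among them the chemokine genes Ppbp, Pf4, Cxcl3 and Cxcl15.

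Cxcl5, which attracts neutrophils and is made mainly by epithelial cells, was the most abundant of the 10 genes in both organoid groups. Its levels were 538, 111 and 65.1 scaled FPKM in biliary cultures 1, 2 and 3, and 179, 351 and 158 in pancreatic cultures 1, 2 and 3. Biliary epithelium had 27.4 and pancreatic epithelium 0.404, which rests on 10 reads. Every organoid was thus above both epithelia, while the organoid groups overlapped. The rise over both organs was 4.87 on the log2 scale (SE 1.17, 6 organoids and 2 epithelia, limma adjusted p = 0.00996). Within an organ the mean difference was 2.48 ± 1.57 in bile duct and 7.26 ± 0.62 in pancreatic duct (SD, n = 3 organoids against 1 epithelium), and the difference between these was not tested.

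Cxcl1, the mouse counterpart of human GRO-alpha, had 82.7, 12.9 and 12.4 scaled FPKM in biliary cultures 1, 2 and 3. Pancreatic cultures 1, 2 and 3 had 18.7, 66.1 and 19.9. Biliary epithelium had 8.18 and pancreatic epithelium 21.6. All biliary cultures lay above their epithelium, whereas pancreatic cultures 1 and 3 lay slightly below theirs and culture 2 well above. The difference over both organs was 0.93 (SE 0.82, limma adjusted p = 0.359).

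Cxcl2, also known as MIP-2, had 31.4, 1.27 and 1.39 scaled FPKM in biliary cultures 1, 2 and 3, and 5.16, 29.3 and 4.29 in pancreatic cultures 1, 2 and 3. The epithelia had nearly equal levels, 9.75 in bile duct (226 reads) and 9.65 in pancreatic duct (265 reads). In each organ 1 culture lay above the epithelium and the other 2 lay below it. The difference over both organs was -0.52 (SE 1.15, limma adjusted p = 0.721). Without biliary culture 1 and pancreatic culture 2, the only cultures above their epithelium, the difference was -1.55. That choice fixed its direction, so no test is given.

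The other chemokine genes within this window did not share 1 pattern. Cxcl3 had 0.178 and 0.0215 scaled FPKM in biliary and pancreatic epithelium. In organoids it had 19.1, 1.79 and 1.56 in biliary cultures 1, 2 and 3 and 1.35, 6.83 and 2.04 in pancreatic cultures 1, 2 and 3. All organoids were above both epithelia, with a difference of 2.03 (SE 0.85, limma adjusted p = 0.0759). Cxcl3 passed the filter on low values only through the organoids, so a difference was built into its being tested. Pf4 and Ppbp, which are platelet and megakaryocyte products, went the other way. Pf4 had 37.4 and 32.4 in the epithelia and 0.263 to 4.54 in organoids, and Ppbp had 6.83 and 15.2 in the epithelia and at most 0.461 in an organoid.

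Ccl20 (ENSMUSG00000026166, chromosome 1, 83116766 to 83119167) is the ligand of Ccr6 and draws dendritic cells and IL-17-producing T cells to epithelia. It had 18 reads in biliary epithelium, 1.13 scaled FPKM, and 0 reads in pancreatic epithelium. Biliary cultures 1, 2 and 3 had 21.4, 6.97 and 4.55 scaled FPKM, and pancreatic cultures 1, 2 and 3 had 8.40, 8.38 and 5.81. Every organoid lay above both epithelia and the organoid groups overlapped. The rise over both organs was 2.65 (SE 0.51, limma adjusted p = 0.00357), or 4.54 with a pseudocount of 0.1 in place of 1. Cxcl5, Cxcl16 and Ccl20 were the 3 of the 9 tested with all 6 organoids above both epithelia, against 30.7% of all genes, and Cxcl12 and Cxcl13 were the 2 with all 6 below both, against 32.5%.

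Ccl28 (ENSMUSG00000074715, chromosome 13, 119623819 to 119654354), a mucosal chemokine that binds Ccr10 and Ccr3, had 12.4 scaled FPKM in biliary epithelium and 2.00 in pancreatic epithelium. Biliary cultures 1, 2 and 3 had 2.31, 5.44 and 1.18, all below their epithelium. Pancreatic cultures 1, 2 and 3 had 0.693, 2.2 and 2.2, on either side of theirs. The difference over both organs was -1.06 (SE 0.53, limma adjusted p = 0.129). It was -0.23 without biliary epithelium and -1.93 without pancreatic epithelium, and passed the test in neither case.

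Cxcl16 and Cx3cl1 are the 2 chemokines anchored in the cell membrane by a stalk, from which the proteases Adam10 and Adam17 release them. Cxcl16 (ENSMUSG00000018920, chromosome 11, 70453983 to 70459984), the ligand of Cxcr6, had 20.4 and 11.3 scaled FPKM in biliary and pancreatic epithelium. Biliary cultures 1, 2 and 3 had 91.7, 23.3 and 28.0, and pancreatic cultures 1, 2 and 3 had 49.6, 59.4 and 26.3. All 6 organoids lay above both epithelia, but the difference of 1.37 (SE 0.56) missed the threshold, with limma adjusted p = 0.0724. It passed with FPKM as deposited (adjusted p = 0.0323) and without biliary culture 2 (adjusted p = 0.0438). Across the other settings run for it the adjusted p lay at 0.05 or above.

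Cx3cl1 (ENSMUSG00000031778, chromosome 8, 94772009 to 94782427), called fractalkine, had 19.7 scaled FPKM in biliary and 6.69 in pancreatic epithelium. Biliary cultures 1, 2 and 3 had 10.3, 8.18 and 4.79, all below their epithelium. Pancreatic cultures 1, 2 and 3 had 8.87, 10.4 and 6.38, with cultures 1 and 2 above their epithelium and culture 3 just below it. The difference over both organs was -0.50 (SE 0.40, limma adjusted p = 0.32). Adam10 had 41.8 to 72.9 scaled FPKM in organoids and 48.0 and 59.6 in the epithelia, and Adam17 had 15.9 to 20.6 in organoids and 11.7 and 17.1 in the epithelia. Neither protease gene passed the test, with limma adjusted p = 0.941 and adjusted p = 0.0623. Dpp4, a surface peptidase that trims several chemokines, changed by -0.98 (SE 0.30, limma adjusted p = 0.0278).

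Cxcl12 (ENSMUSG00000061353, chromosome 6, 117168535 to 117181367), known as stromal cell-derived factor 1, had nearly equal levels in the epithelia and almost none in organoids. Biliary epithelium had 26.1 scaled FPKM from 2393 reads and pancreatic epithelium 28.6 from 3108 reads. Biliary cultures 1, 2 and 3 had 0, 1 and 1 read, and pancreatic cultures 1, 2 and 3 had 0, 3 and 0 reads. Per sequenced read, biliary epithelium held 5220 times the level of its organoids summed (exact 95% interval 1440 to 43100), and pancreatic epithelium 3610 times (1230 to 17500). Such intervals cover counting error only. The difference over both organs was -4.82 (SE 0.09), or -8.03 with a pseudocount of 0.1. It is given as a description, since Cxcl12 entered the test only through the epithelia.

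Cxcl13 (ENSMUSG00000023078, chromosome 5, 95956951 to 95961068), which guides B cells into lymphoid follicles through Cxcr5, differed widely between the epithelia and was nearly absent from organoids. Pancreatic epithelium had 389 scaled FPKM from 5937 reads and biliary epithelium 23.4 from 302 reads, a log2 difference of -4.00 for bile duct minus pancreatic duct. Each value comes from 1 library, so the difference has no replicate check. Biliary cultures 1, 2 and 3 had 1, 0 and 0 reads, and pancreatic cultures 1, 2 and 3 had 5, 1 and 0. The difference over both organs was -6.53 (SE 0.75), which is likewise a description, since the gene entered the test only through the epithelia. B cell genes were also higher in pancreatic epithelium, with 52.4 against 12.4 scaled FPKM for Cd79a and 14.4 against 1.64 for Ms4a1. Of the other leukocyte genes, Cd68, Csf1r, Adgre1, Itgax, Itgam and Cd3e had the higher level in biliary epithelium, such as 28.4 against 13.6 in pancreatic epithelium for Cd68 and 7.19 against 0.878 for Itgax. Ptprc, carried by all leukocytes, had 5.58 in biliary and 6.33 in pancreatic epithelium. The sums of 5 lymphoid follicle stroma genes were close, at 9.80 in pancreatic and 8.04 in biliary epithelium. In that list Cr2 and Fcer2a had the higher level in pancreatic epithelium and Madcam1, Pdpn and Tnfsf13b in biliary epithelium. The part of these genes in the level of Cxcl13 was not tested.

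Ccl19, which binds Ccr7 and draws naive T cells and dendritic cells, has 2 near-identical entries, so its values are uncertain. The entry on chromosome 4 (ENSMUSG00000071005, 42754525 to 42756577) had 27 reads in biliary epithelium and 9 in pancreatic epithelium, 2.78 and 0.781 scaled FPKM. No organoid had a read. Taking 3 reads over the 3 organoids of an organ as the limit, its level was at least 39.3-fold lower in biliary cultures and at least 10.4-fold lower in pancreatic cultures. With the counting error of the 27 and 9 epithelial reads included, the exact 95% lower limits of the ratio of epithelium to organoids were 29.8 and 6.87. The other entry (ENSMUSG00000094661), on an unplaced scaffold, had 1 read in each epithelium and 0 in the organoids.

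Between the epithelia, Cxcl5, Ccl20, Ccl28, Ccl19 and Cx3cl1 had the higher level in the biliary library and Cxcl1 and Cxcl13 in the pancreatic library, by 2-fold or more and without a replicate check. Of 15524 genes, 9.10% were as far apart towards bile duct and 4.57% towards pancreatic duct. The log2 differences were 4.34 for Cxcl5, 2.16 for Ccl28, 1.43 for Cx3cl1, 1.09 for Ccl20 and 1.08 for Ccl19. That of Ccl20 rests on 18 and 0 reads and was 3.62 with a pseudocount of 0.1 and 0.99, just under 2-fold, with FPKM as deposited. Cxcl1 had -1.30. Cxcl16, Cxcl12 and Cxcl2 were less than 2-fold apart, with 0.80, -0.13 and 0.01. The summed level of 10 duct epithelium genes was 2930 scaled FPKM in biliary and 731 in pancreatic epithelium. The summed level of 7 intestinal absorptive genes was 324 against 13.9. In organoids Vil1, also made by other brush-border epithelia, had 49.7 to 103 scaled FPKM, while Alpi, Apoa4, Fabp2, Lct and Sis had at most 0.719 and Apob had 0.507 to 6.36. Their part in these differences was not tested.

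Within each organ, the 3 organoids were set against the single epithelium without a test, and a gene was counted when the mean difference reached 2-fold with all 3 organoids on 1 side. In bile duct, Cxcl1, Cxcl5 and Ccl20 were higher in organoids (3 of 10 genes, against 12.2% of all genes) and Ccl28, Cxcl12, Cxcl13, Ccl19 and Cx3cl1 were lower (5 of 10, against 25.6%). Cxcl1 was at 1.45 and, without biliary culture 1, at 0.58 and under 2-fold, while Cxcl2 reached -2.21, which left 2 genes higher and 6 lower. Cxcl16, at 0.91, passed 2-fold without biliary culture 2 (1.28), without biliary culture 3 (1.15) and with FPKM as deposited (1.17), which gave 4 genes higher. In pancreatic duct, Cxcl5, Cxcl16 and Ccl20 were higher (3 of 10, against 14.8%) and Cxcl12 and Cxcl13 were lower (2 of 10, against 24.5%). Cx3cl1 and Ccl28 thus met the limit in bile duct, at -1.29 ± 0.49 and -1.90 ± 0.79, and not in pancreatic duct, at 0.29 ± 0.32 and -0.21 ± 0.53 (SD, n = 3). The epithelia of the organs differed for these genes, whereas their organoids overlapped, and the difference between organs was not tested.

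The order of the 10 genes by level differed between epithelia and organoids. In biliary epithelium Cxcl5, Cxcl12, Cxcl13, Cxcl16 and Cx3cl1 lay within 19.7 to 27.4 scaled FPKM. In pancreatic epithelium Cxcl13 stood far above Cxcl12, the next, and Cxcl5 and Ccl20 came last. By the group means of organoids, the order in both organs began with Cxcl5, Cxcl16, Cxcl1 and Cxcl2. The place of Cxcl2 rests on biliary culture 1 and pancreatic culture 2, since it lay below Ccl20 and Cx3cl1 in each of the other 4 cultures. Cxcl5 had 238 ± 261 scaled FPKM in biliary and 229 ± 106 in pancreatic cultures, Cxcl16 had 47.6 ± 38.2 and 45.1 ± 17.0, and Cxcl1 had 36.0 ± 40.4 and 34.9 ± 27.1 (SD, n = 3 each). Cxcl2, Ccl20 and Cx3cl1 followed at 11.4 ± 17.4, 11.0 ± 9.10 and 7.75 ± 2.78 in biliary and 12.9 ± 14.2, 7.53 ± 1.49 and 8.56 ± 2.05 in pancreatic cultures. From Cxcl16 down to these 3 genes, neighbours in the order differed by less than the larger SD of the pair. Ccl28 came next with 2.98 ± 2.21 and 1.70 ± 0.868.

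None of the 10 chemokine genes passed the test between biliary and pancreatic cultures, where 7 of them were high enough to be tested. Among 12094 genes tested with limma, 0 (0%) passed an adjusted p under 0.05 and 307 (2.54%) had an unadjusted p under 0.05. All 7 chemokine genes tested had a limma adjusted p = 1, and none had an unadjusted p under 0.05, the lowest being 0.333 for Ccl28. Differences, bile duct minus pancreatic duct, ran from -0.83 for Cxcl2 (SE 1.22) to 0.49 for Ccl28 (SE 0.46). Single cultures moved both, Cxcl2 to -2.12 without biliary culture 1 and to -0.02 without pancreatic culture 2, and Ccl28 to 0.06 without biliary culture 2. The groups overlapped for each of the 7, and 6.76% of all genes tested had groups that did not overlap. The wide standard errors leave room for sizeable differences, so equal levels are not shown.

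Replicate cultures of 1 organ differed widely in these genes. The residual SD between cultures was 1.86 for Cxcl2, 1.29 for Cxcl1, 1.21 for Cxcl5, 0.86 for Cxcl16, 0.77 for Ccl20, 0.69 for Ccl28 and 0.43 for Cx3cl1, on the log2 scale. Its median was 0.86 over the 7 chemokine genes and 0.21 over all 12094 genes. Cxcl2, Cxcl1 and Cxcl5 stood at percentiles 99.7, 98.9 and 98.6 of all genes tested, and Cx3cl1, the steadiest of the 7, at percentile 81.3. Over all 6 cultures of both organs, the highest exceeded the lowest 24.9-fold for Cxcl2, 8.27-fold for Cxcl5, 7.85-fold for Ccl28, 6.65-fold for Cxcl1 and 2.18-fold for Cx3cl1. For Ccl28 and Cx3cl1 the highest and lowest cultures were of different organs, and for Cxcl2, Cxcl5 and Cxcl1 both were biliary.

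**Figure D3:**
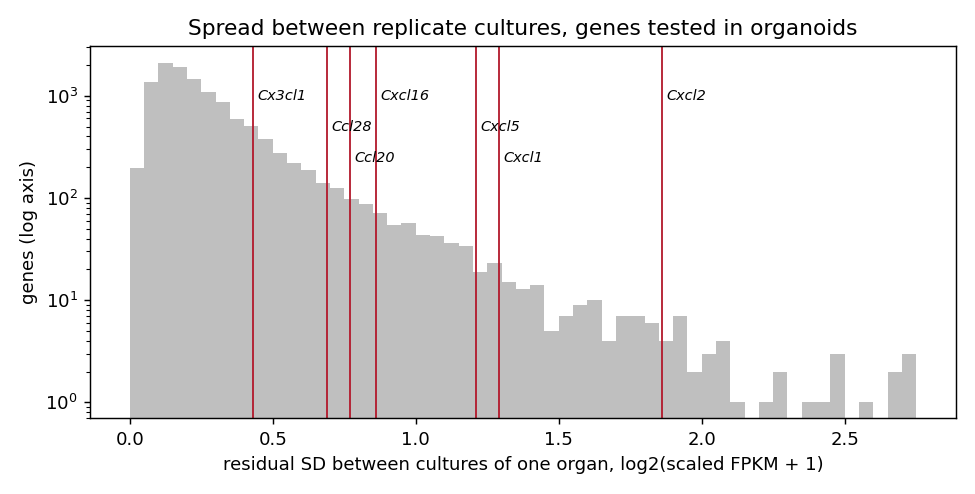
Number of genes (log axis) by residual SD between replicate cultures of 1 organ, in log2(scaled FPKM + 1), for all 12094 genes tested in organoids; red lines mark the 7 chemokine genes. Cxcl2 at 1.86 and Cxcl1 at 1.29 lie far into the upper tail, and Cx3cl1 at 0.43 is closest to the bulk.

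The same cultures were high for most of these genes. Biliary culture 1 was the highest of its organ and pancreatic culture 2 the highest of its organ for Cxcl1, Cxcl2, Cxcl5, Cxcl16 and Cx3cl1, 5 of the 7 genes, against 24.0% of all genes tested. Biliary culture 1 was the highest of all 6 cultures for 5 of the 7 (Cxcl1, Cxcl2, Cxcl5, Cxcl16 and Ccl20), against 19.8% of all genes. Both cultures were picked out after these values were seen, so the counts are a description and support nothing further. For Ccl20, biliary culture 1 was highest, and pancreatic cultures 1 and 2 were level. Ccl28 was highest in biliary culture 2. Mki67, a proliferation marker, was chosen after these values were seen. It had 23.4, 62.4 and 61.2 scaled FPKM in biliary cultures 1, 2 and 3 and 30.3, 18.0 and 52.2 in pancreatic cultures 1, 2 and 3, so it was lowest in those 2 cultures. Their depths, 17813366 and 17592134 reads, lay inside the range of the organoids, 15405339 to 20828171. Its part in the chemokine levels was not tested.

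**Figure D4:**
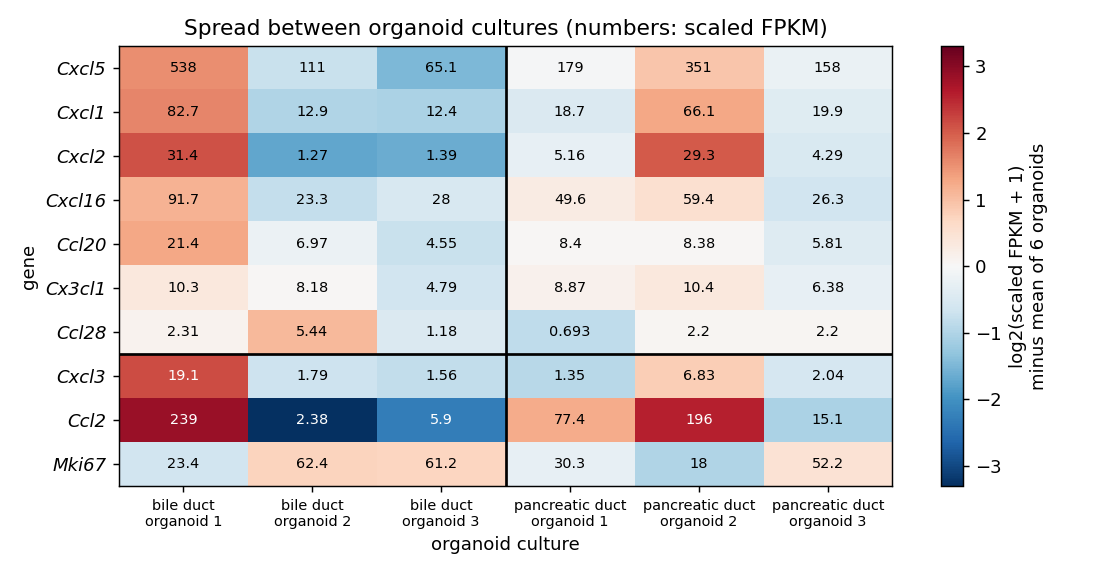
Scaled FPKM of 7 chemokine genes (above the line) and of Cxcl3, Ccl2 and Mki67 (below) in each organoid culture; colour gives log2(scaled FPKM + 1) minus the mean of the 6 cultures. Biliary culture 1 and pancreatic culture 2 are red for Cxcl5, Cxcl1, Cxcl2, Cxcl3 and Ccl2 and blue for Mki67.

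Genes of NF-kappa B and IL-17 signalling, which induce or restrain these chemokines, were looked at in the same libraries. All 18 listed genes were kept in organoids, against 67.1% of genes present in an epithelium. The list was chosen with earlier results of these data known, so its counts are descriptions. Of the 18, Tnfaip2 rose and Nfkbiz and Tnfrsf1a fell from epithelium to organoid, and 15 did not pass the test, against 27.6% higher and 30.7% lower of all genes tested. Tnfaip2, a TNF-induced gene, rose by 2.33 (SE 0.49, limma adjusted p = 0.00534). Nfkbiz, a nuclear cofactor of NF-kappa B, changed by -1.03 (SE 0.31, limma adjusted p = 0.0265), and the TNF receptor gene Tnfrsf1a by -0.95 (SE 0.13, limma adjusted p = 0.000812). Their median difference was 0.11, against -0.01 over all genes tested.

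For 12 of these 18 genes biliary culture 1 and pancreatic culture 2 were each the highest of their organ, again against 24.0% of all genes. As cultures and list were chosen with earlier values of these data known, this count is a description. The pattern was not met by Il17ra, Il17rc, Il17re, Ltbr, Tnfrsf1a and Traf3ip2. Of these, all but Traf3ip2 had biliary culture 1 as the lowest of its organ, such as 2.97 scaled FPKM against 10.4 and 7.88 for Il17re. Tnfaip3, which limits NF-kappa B signalling, had 35.1, 7.44 and 7.04 scaled FPKM in biliary cultures 1, 2 and 3 and 12.9, 24.4 and 6.94 in pancreatic cultures 1, 2 and 3. Relb, an NF-kappa B subunit, had 13.6, 4.52 and 4.27 in the former and 7.73, 11.4 and 4.36 in the latter. Tnfaip3 and Relb were named after their values were seen.

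Receptors for these ligands were scarce in organoids. Of 11 partner receptor genes, 6 could be tested and all 6 fell from epithelium to organoid by limma, against 30.7% of all genes tested. Of the 6, 5 were below 1 scaled FPKM in every organoid and entered the test only through the epithelia, which built in the difference, and the other was Ackr3. The 6 were Cxcr4, Ackr3, Ccr7, Cxcr6, Ccr10 and Cx3cr1. The summed level of all 11 was 109 and 111 scaled FPKM in biliary and pancreatic epithelium and 0.456 to 3.35 in organoids. Ackr3, a scavenging receptor of Cxcl12, had 79.1 and 89.4 in the epithelia and 0.112 to 2.2 in organoids. Cxcr4, the signalling receptor of Cxcl12, had 13.8 and 9.20 against at most 0.705. Cxcr2, the receptor of Cxcl1, Cxcl2 and Cxcl5, had 1.81 and 0.321 in the epithelia and 0.0828 to 0.164 in organoids. Cxcr6 had 4.02 and 1.68 in the epithelia and at most 0.157 in organoids. Cx3cr1 had 5.07 and 2.39 against at most 0.049. Cxcr5, Ccr6, Ccr3 and Cxcr1 reached at most 2.28, 1.97, 0.79 and 0.0296 scaled FPKM in any library. Ccr7 had 1.80 and 2.28 in the epithelia and Ccr10 had 1.45 and 1.18. All 11 other chemokine receptors were below 1 scaled FPKM in every organoid, and their sum was at most 0.147. The 5 highest of them in the epithelia were the atypical receptors Ackr1, Ackr4 and Ackr2, which bind chemokines without signalling through G proteins, and the myeloid receptors Ccr1 and Ccr2. Ackr1 had 9.58 and 22.7 scaled FPKM in biliary and pancreatic epithelium and 0 reads in organoids.

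Among 27 further chemokine genes, 14 of 19 tested fell and 0 rose from epithelium to organoid by limma, and 5 did not pass, against 30.7% lower and 27.6% higher of all genes tested. Of the 14 that fell, 12 reached 1 scaled FPKM in fewer than 2 organoids and entered the test only because of the epithelia, which built in their fall, so the count supports nothing further. The 5 most abundant in organoids were Ccl2, Ccl7, Cxcl17, Cxcl3 and Pf4, of which Pf4 fell and the other 4 did not pass. Ccl2, a monocyte attractant, had 239, 2.38 and 5.90 scaled FPKM in biliary cultures 1, 2 and 3, and 77.4, 196 and 15.1 in pancreatic cultures 1, 2 and 3. The epithelia had 13.4 and 13.1. Its residual SD between cultures, 2.68, was above that of each of the 7 chemokine genes followed here. Ccl7 ranged from 0.467 to 48.0 and Cxcl17 from 0.491 to 15 in organoids. With entries on unplaced scaffolds left out, the most abundant in the epithelia were Ccl6, Ccl11, Pf4, Ccl8 and Ccl5, known from macrophages, fibroblasts, platelets and T cells. Ccl11, an eosinophil attractant, had 54.6 and 34.6 scaled FPKM in biliary and pancreatic epithelium and 0 reads in each organoid. Ccl6 had 70.9 and 23.7, Ccl8 35.1 and 10.9 and Ccl5 38.1 and 7.21. An entry for Ccl21a on an unplaced scaffold had 16.4 and 29.4, a mean just above that of Ccl5, which is uncertain because near-identical copies of the gene exist.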

How the data were processed

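Expression was read from 1 table of FPKM values deposited by the authors, with 1 column per library and 0 columns left aside. The unit was read from the values, and the submitters' processing notes name HISAT2 2.1.0, Bowtie2 2.2.3, TopHat2 and HTSeq 0.6.0 without roles. Whether counting used strand is not given in the sources used here. Deposited FPKM times GENCODE M21 exon length was divided by its most frequent value in that library, refined on values close to whole reads. The result lay within 0.05 of a whole read in every library for 90.2% of genes, with values of 0 counted as whole. This gave the read numbers and depths of 12876441 to 20828171. Coordinates are those of the table, in GRCm38.

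FPKM was scaled by a trimmed mean of log ratios (30% and 5% trimmed) over genes with at least 1 FPKM in a library, which moved organoids against epithelia by 0.28 on the log2 scale. log2(FPKM + 1) was tested with limma 3.58.1 in R 4.3.3 with an intensity trend and Benjamini-Hochberg adjustment over all genes tested. Filters were 1 scaled FPKM in at least 3 of 6 organoids, which were scaled on their own, or in at least 2 of 8 libraries. Depth was recovered from FPKM, so no count model was used. With 1 library per epithelium, comparisons within an organ and between epithelia have no test, and 2-fold differences were counted, within an organ only with all 3 organoids on the same side. Both fits were tried on simulated data with 200 genes changed and noise as observed. The organoid fit on 12094 genes recovered 51% of 2-fold and 86% of 4-fold changes, and 7 of its 144 calls were false. The fit over both organs on 15033 genes recovered 64% and 79%, and 16 of its 159 calls were false. The calls of Cxcl5 and Ccl20 come from the fit over both organs. The genes and lists were chosen with earlier results of these data known. All members, partner receptors and proteases are named, with the 5 other chemokine genes highest in organoids and in epithelia and up to 3 NF-kappa B genes per direction. Figures used Python 3.11.15, matplotlib 3.10.9, pandas 2.3.3 and numpy 2.4.6.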

Additional observations from a re-analysis of the deposited data

How the results depend on the processing

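Values are given as main against alternative. Over both organs, 4144 genes were higher and 4610 lower in organoids, against 5497 and 3659 with FPKM as deposited. Without a filter on low values 7435 were lower, and with a filter of 5 FPKM in at least 3 libraries, in place of 1 FPKM in at least 2, 1255 were. That filter changed the level and the number of libraries together, and their parts were not tested. Without biliary epithelium 2757 were higher and 1657 lower, and without pancreatic epithelium 2425 and 1526. Of the chemokine genes, 2 were called higher and 2 lower. With that filter, without biliary epithelium or without pancreatic epithelium 0 were called lower. Cxcl12 and Cxcl13 pass 5 FPKM in both epithelia, but in no organoid, so they fell short of 3 libraries under that filter and of 2 without an epithelium and were not tested. Without pancreatic epithelium 0 were called higher. The genes at least 2-fold higher in biliary epithelium numbered 5, and 3 with a minimum of 5 FPKM in an epithelium, which Ccl20 and Ccl19 do not reach. Cx3cl1, at -0.50 over both organs, was at 0.27 without biliary epithelium, and the cause was not tested.

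Between the organoid groups, leaving out each culture in turn gave 0 to 11 genes called, with 11 only without pancreatic culture 3, and 0 chemokine genes. The sign of uncalled differences turned with single cultures. The ranges were -1.14 to 0.32 for Cxcl1, with 0.16 and 0.19 without biliary culture 2 and 3, -1.32 to 0.21 for Cxcl5, -0.72 to 0.26 for Cxcl16, with 0.13 without biliary culture 3 or pancreatic culture 2, -0.34 to 0.68 for Ccl20 and -0.37 to 0.13 for Cx3cl1. Cxcl2 and Ccl28 kept their sign, at -2.12 to -0.02 and 0.06 to 0.86. Without biliary culture 1 and pancreatic culture 2 together, chosen after their values were seen, Ccl20 was at -0.27, 2 chemokine genes were called higher and 3 lower over both organs, the third being Cxcl2, whose direction that choice fixed, and 6 were kept and 3 lost. With the replicate number as a replicate block 0 genes and 0 chemokine genes were called, as without it. The deviations of cultures of the same number had correlations of -0.104, -0.44 and 0.482 for numbers 1, 2 and 3. Since not every pair deviated together, the numbers were not taken as pairs. Depth limits Ccl19, Ccl20 and the lost genes, which rest on few reads, and the single epithelial libraries limit every comparison with organoids.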
